A study of Homo sapiens with 24 samples.

Results

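HepG2, an established human liver cancer line, was profiled with a guide RNA against KEAP1 while the transcription factors TFEB and TFE3 were depleted. The comparison set the 4 libraries labelled sitfeb/sitfe3; sgKeap1-2 against the 4 labelled sitfeb/sitfe3; sgCtrl, 8 of the 24 libraries measured. Members were taken by these labels, and every gene with an Entrez ID was described. All 8 came from cells that carried the lentiCRISPRv2 vector with Cas9, had been selected with puromycin and had received siRNA pools against TFEB and TFE3 72 h before RNA extraction, so the controls (hereafter sgCtrl, a guide to the AAVS1 safe-harbour site) were TFEB- and TFE3-depleted as well. The sgKEAP1-2 cells were a selected, edited population rather than a stated clone. The library names carry 4 date-like prefixes, 1 for each replicate number and shared by all 6 groups, but the labels do not say what a prefix marks or whether the 4 libraries of a group came from separate cultures. The p-values thus measure a spread between libraries of a group, which may be technical and which 1 fit estimated over all 24 libraries, not only these 8. The other 16 libraries were the sgCtrl, sgKEAP1-1 and sgKEAP1-2 cells with a non-targeting siRNA (siNC) and the sgKEAP1-1 cells with siTFEB/siTFE3, again 4 each.

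KEAP1 is the adaptor through which a cullin-3 ubiquitin ligase marks NRF2, the product of NFE2L2, for degradation. When KEAP1 is lost, NRF2 accumulates and binds antioxidant response elements (ARE) with a small MAF partner, and it is known for raising genes of glutathione synthesis, NADPH supply, quinone reduction and xenobiotic export in liver. TFEB and TFE3 belong to the MiT/TFE family and bind CLEAR elements at genes of lysosomes and autophagy. The comparison addressed what KEAP1 loss does to the transcriptome when both factors have been reduced.

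Total reads of the 8 libraries ranged from 3527000 to 4474302, and 11650 to 11844 of 11927 features had at least 1 read. All 10 hepatocyte markers examined were present, though not all at like levels in the 2 groups. APOA2 had a mean of 5192 CPM (read counts scaled to the library's TMM-adjusted total) with sgKEAP1-2 and 5209 CPM with sgCtrl. ALB had 3986 and 9237 CPM, AFP 1337 and 6726 CPM and GPC3 1638 and 1467 CPM. The markers of other cell types that the table holds, PDGFRB and SYP among them, did not exceed 6.76 CPM. A pair of sgKEAP1-2 libraries stood apart. Replicate 1 had MTRNR2L8 (a nuclear copy of mitochondrial ribosomal RNA sequence) at 48201 CPM against 4303 to 12096 CPM in the other 7 libraries, and 483 of 6544 genes above 20 CPM differed there from the other 3 replicates by more than 1 on the log2 scale, against 24 to 47 for each of the others. Replicate 2 held 55 genes at 10 CPM or more that were at 1 CPM or less in the other 3 replicates, and the same rule found 0 genes in each of the other 7 libraries. They were led by ITGB7 at 523 CPM, JCHAIN at 327 CPM and GSTP1 at 254 CPM, and included MZB1, TNFRSF17, IKZF3 and PRDM1, genes known from B cells and plasma cells. Their summed level was 2331 CPM in replicate 2, or 0.235% of its reads, against 5.26 to 8.80 CPM in the other sgKEAP1-2 libraries, and it was 42.1, 5.31, 3.71 and 153 CPM in sgCtrl replicates 1 to 4.

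The sgCtrl libraries 1 and 4 that carried these transcripts also held more of the genes that rose with sgKEAP1-2. Over the 60 genes that rose most, the median level was 8.22%, 3.65%, 4.49% and 12.8% of the sgKEAP1-2 mean in sgCtrl replicates 1 to 4, and replicate 4 was the highest sgCtrl library for 36 of the 60 and replicate 1 for 19. In siNC sgCtrl replicates 1 to 4 the same 60 genes had medians of 4.33%, 11.3%, 9.38% and 6.32% of the siNC sgKEAP1-2 mean. Those libraries held 4.83, 45.4, 6.32 and 4.72 CPM of the 55 genes, so the 2 measures did not rank them alike throughout. Of the 55 genes, 10 were tested and 0 were called. The part these transcripts play in the results was not tested, and values without sgKEAP1-2 replicate 2 and sgCtrl replicates 1 and 4 (the 3 libraries left out) are given beside the results below. That subset leaves 3 libraries against 2 and calls 1472 genes in place of 2253, so it also has fewer libraries.

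**Figure D1:**
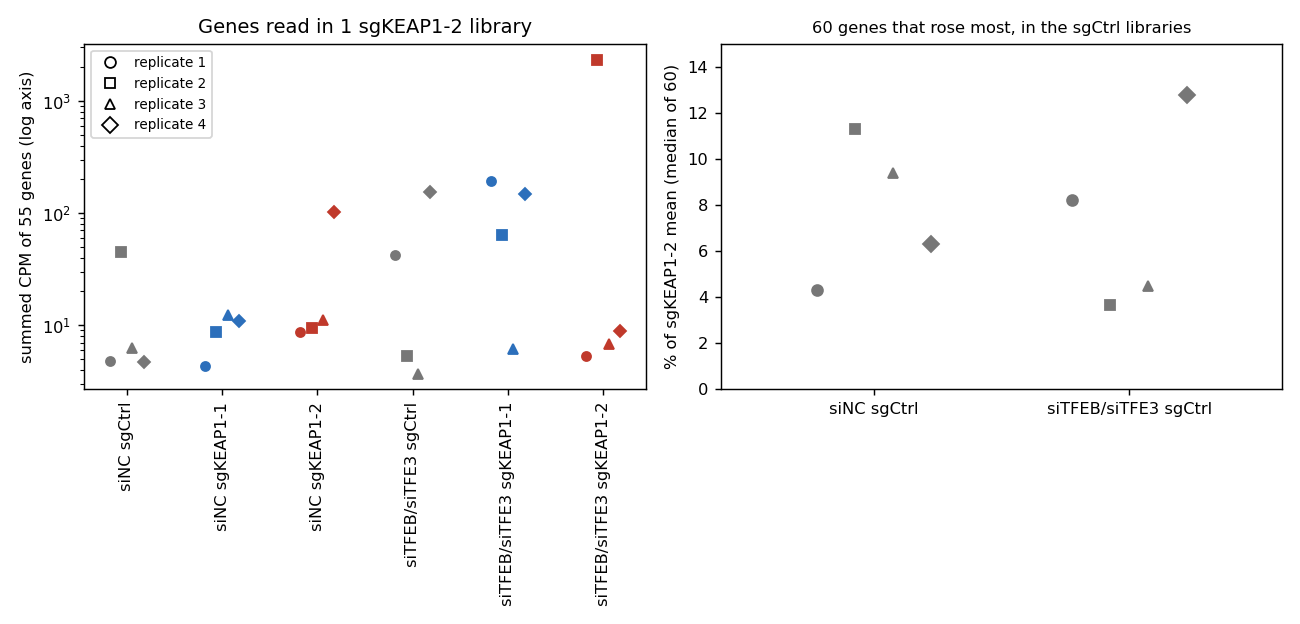
Left, summed CPM (log axis) of the 55 genes read in sgKEAP1-2 replicate 2 in each of the 24 libraries, by group, with symbols for the replicate; 1 library stands at 2331 CPM. Right, level of the 60 genes that rose most under siTFEB/siTFE3 in each sgCtrl library, as the median percent of the sgKEAP1-2 mean under the same siRNA. Replicate 4 of sgCtrl with siTFEB/siTFE3 is the highest of its group at 12.8%.

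The siRNA targets were read first in every library. TFEB stood at 4.33, 4.43, 2.95 and 1.85 CPM in the sgKEAP1-2 libraries and at 2.11, 2.17, 2.32 and 3.96 CPM in the sgCtrl libraries, against 6.98 to 17.3 CPM in siNC sgCtrl cells and 7.59 to 13.7 CPM in siNC sgKEAP1-2 cells. TFE3 stood at 17.02, 16.7, 12.9 and 19.2 CPM in the sgKEAP1-2 libraries and at 9.47, 10.6, 7.88 and 19.6 CPM in the sgCtrl libraries, against 29.2 to 36.1 CPM and 38.4 to 75.6 CPM with siNC. Every knockdown library of these groups lay below every siNC library for both genes. Between the knockdown groups the log2 fold change was 0.28 (SE 0.45, limma adjusted p 0.721) for TFEB and 0.54 (SE 0.30, limma adjusted p 0.216) for TFE3, neither past the threshold, and the 2 groups overlapped for both.

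KEAP1 itself (chromosome 19, 10596801 to 10614234, minus strand; coordinates are GRCh37) stood at 73.9, 77.99, 90.6 and 69.7 CPM in the sgKEAP1-2 libraries and at 85.8, 85.95, 84.1 and 84.7 CPM in the sgCtrl libraries, a log2 fold change of -0.13 (SE 0.10, limma adjusted p 0.422). The 3′ reads lie downstream of the coding sequence that a guide edits, so this level does not check the edit. NFE2L2 (chromosome 2, 178083395 to 178257484, minus strand) stood at 282, 174, 163 and 184 CPM in the sgKEAP1-2 libraries and at 218, 232, 237 and 179 CPM in the sgCtrl libraries, with a log2 fold change of -0.14 (SE 0.14, limma adjusted p 0.534). NRF2 is controlled mainly through protein stability, which RNA counts do not measure. Of the 10 genes of the KEAP1-NRF2 switch, 2 were called higher and 0 lower, which is close to the 20.2% of all genes that were called. The list had 3 higher without sgKEAP1-2 replicate 1 and 1 with the 3 libraries left out. BACH1, a repressor that competes with NRF2 for its sites, rose by 1.23 (SE 0.22, limma adjusted p 0.000178), although its counts are identical to those of GRIK1-AS2 and the 2 cannot be told apart. MAFK, a small MAF partner, rose by 0.52 (SE 0.17, limma adjusted p 0.0289) on the log2 scale and had a log2 fold change of 0.50 (adjusted p 0.138) with the 3 libraries left out.

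Of 11152 genes tested, 1184 (10.6%) were called higher and 1069 (9.59%) lower with sgKEAP1-2, 2253 (20.2%) in all. The counts given for each list below are to be read against these shares. A call is a limma adjusted p under 0.05, and log2 fold changes are those of the limma fit. Among these, 474 higher and 269 lower genes had a log2 fold change of at least 1 in size, and 27 higher and 1 lower at least 4. The groups did not overlap in 2210 genes (19.8%). In 1180 genes (10.6% of those tested) all 4 sgKEAP1-2 libraries lay above every sgCtrl library and in 1030 (9.24%) below. In bulk RNA, fewer cells of a kind and less RNA per cell cannot be told apart. With the 3 libraries left out, 813 genes were called higher and 659 lower, and without sgKEAP1-2 replicate 1 alone 1185 and 1051. A fit of only the libraries compared, with the spread taken from these alone, called 827 higher and 769 lower.

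The 10 genes that rose most had at most 4.71 CPM in any sgCtrl library. MAP2, a microtubule-associated protein known from neurons (chromosome 2, 210288771 to 210598871), stood at 42.1, 41.8, 49.1 and 44.7 CPM in the sgKEAP1-2 libraries and at 1.84, 0.241, 0 and 4.21 CPM in the sgCtrl libraries. Its log2 fold change was 5.90 (SE 0.78, limma adjusted p 3.09e-06), and with 0 to 17 reads per sgCtrl library the fitted size depends on the handling of low counts. DEFB1, an epithelial antimicrobial peptide, stood at 45.5, 51.2, 65.7 and 88.01 CPM in the sgKEAP1-2 libraries and at 2.11, 0.724, 0.232 and 4.71 CPM in the sgCtrl libraries, a log2 fold change of 5.56 (SE 0.75, limma adjusted p 4.49e-06). In both genes the highest sgCtrl library was replicate 4 and the next replicate 1, and their log2 fold changes were 7.81 and 6.93 with the 3 libraries left out.

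NOTCH3, a Notch receptor, rose from 1.58, 0, 0 and 1.24 to 9.59, 13.5, 16.4 and 14.6 CPM, and LAMC3, a laminin chain, from 0.789, 0, 0 and 1.24 to 11.1, 9.84, 14.1 and 10.7 CPM. KILH rose from 3.16, 0.241, 0.232 and 2.97 to 42.7, 24.1, 29.8 and 27.1 CPM. For 5 genes no sgCtrl library exceeded 3 counts, so their rise is given as a lower bound against 3 counts per library. NAV3, a neuron navigator protein, was at least 7.07-fold higher, EGF, the epidermal growth factor, at least 7.56-fold, F2RL2, a thrombin-receptor family member, at least 10.6-fold and TMEM92 at least 11.04-fold. LINC01484, a long non-coding RNA, was at least 20.8-fold higher, but it stood at 44.2, 4.67, 8.41 and 3.94 CPM, with replicate 1 far above the others. Without that library the bound was 7.69-fold, and its adjusted p was 0.075 with the 3 libraries left out. For the other 9 genes of these 10 all 4 sgKEAP1-2 libraries lay within a 3-fold range.

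PCK1, the enzyme that commits carbon to gluconeogenesis (chromosome 20, 56136136 to 56143177), fell most. It stood at 0.928, 1.48, 0.909 and 0.232 CPM in the sgKEAP1-2 libraries and at 9.74, 35.3, 18.3 and 6.69 CPM in the sgCtrl libraries, a log2 fold change of -4.07 (SE 0.93, limma adjusted p 0.00212). G6PC1, which releases free glucose, stood at 0, 1.23, 0.227 and 0.926 CPM in the sgKEAP1-2 libraries and at 1.84, 21.01, 9.73 and 3.72 CPM in the sgCtrl libraries and fell by 3.57 on the log2 scale (SE 1.15, limma adjusted p 0.0275). That call was lost when any 1 of the 4 sgKEAP1-2 libraries or sgCtrl replicate 3 was left out, at log2 fold changes of -4.01 to -3.07.

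COL2A1, a cartilage collagen, fell from 22.6, 38.1, 33.6 and 33.4 to 3.40, 3.69, 2.04 and 2.32 CPM, and MTTP, which loads lipid onto apolipoprotein B (chromosome 4, 100485238 to 100545154), from 102, 195, 145 and 104 to 12.1, 18.9, 11.1 and 13.9 CPM. The fall was 11.1-fold for COL2A1 (limma adjusted p 6.45e-08) and 9.51-fold for MTTP (limma adjusted p 4.5e-10). MT1M (below), ACTA1, SULT1C2, SLCO4C1, ROR1 and CTXND1 completed the 10 that fell most, the last 5 with log2 fold changes of -3.25, -3.08, -3.06, -2.80 and -2.57. SULT1C2 is a sulfotransferase, SLCO4C1 an organic anion transporter and ROR1 an orphan receptor kinase. Absence of overlap between the 2 groups was a condition for entering the 10 that fell most, so it is no result for them.

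**Figure D2:**
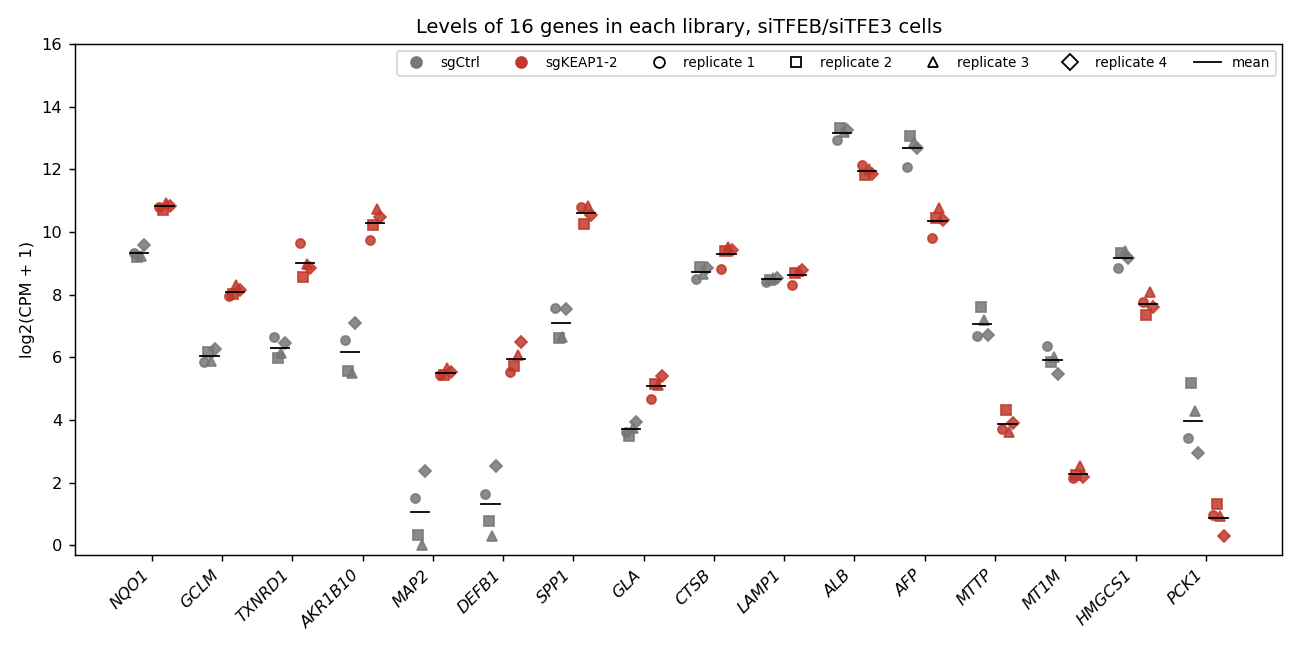
log2(CPM + 1) of 16 genes in each siTFEB/siTFE3 library, sgCtrl in grey and sgKEAP1-2 in red, with symbols for the replicate and a bar at the mean of the 4 log2 values. NQO1, GCLM, TXNRD1, AKR1B10, MAP2 and SPP1 separate upwards, ALB, AFP, MTTP, MT1M, HMGCS1 and PCK1 downwards, and LAMP1 and CTSB overlap.

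Many genes of the NRF2 programme rose with TFEB and TFE3 depleted. Of the 12 tested genes of glutathione synthesis and recycling, 6 were called higher and 0 lower, with a median log2 fold change of 0.65 against 0.01 over all genes. GCLM, the modifier subunit of the rate-limiting ligase, stood at 247, 256, 313 and 280.0 CPM in the sgKEAP1-2 libraries and at 56.6, 71.5, 57.7 and 76.1 CPM in the sgCtrl libraries. It rose 4.20-fold, and the catalytic subunit GCLC 2.86-fold, with log2 fold changes of 2.07 (SE 0.12, limma adjusted p 5.12e-12) and 1.52 (SE 0.11, limma adjusted p 1.37e-10). GPX2, a glutathione peroxidase, rose 2.64-fold (limma adjusted p 5.21e-08), from 202, 138, 142 and 220.0 to 498, 413, 426 and 488 CPM. SLC7A11, which imports cystine for glutathione, rose by 1.67 (SE 0.32, limma adjusted p 0.000416), but ranged from 226 to 469.6 CPM among the sgKEAP1-2 libraries, lowest in replicate 1. Its partner chain SLC3A2 rose by 0.53 (SE 0.13, limma adjusted p 0.00413), and glutathione reductase GSR by 1.05 (SE 0.12, limma adjusted p 3.38e-07).

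Of the 11 thioredoxin and peroxiredoxin genes, 2 were called higher and 1 lower, 27.3% in all against 20.2% of all genes. TXNRD1, thioredoxin reductase, stood at 805, 376, 497 and 455 CPM in the sgKEAP1-2 libraries and at 98.7, 62.5, 68.8 and 86.2 CPM in the sgCtrl libraries, a 6.56-fold rise (limma adjusted p 7.35e-10). Its highest value was in replicate 1, and the lowest sgKEAP1-2 library was still above every sgCtrl library. PRDX1, a peroxide-reducing enzyme, rose by 0.38 (SE 0.10, limma adjusted p 0.00564). TXNIP, an inhibitor of thioredoxin, fell from 152, 116, 149.7 and 60.2 to 24.4, 35.7, 15.9 and 16.9 CPM, by 2.36 on the log2 scale (SE 0.46, limma adjusted p 0.00043). TXN, thioredoxin itself, had a log2 fold change of 0.90 (SE 0.35, limma adjusted p 0.0707) and was not called.

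The ARE is written here as TGACNNNGC, on either strand. Of 27305 RefSeq promoter windows (the 250 bases before the start) 11.0% held it. In the 6 lists of the NRF2 programme, from glutathione to heme and iron, 8 of 33 (24.2%) windows of genes called higher held it. The share was 14 of 70 (20%) for the tested genes of these lists. Over all functions the shares were 12.1% of tested genes, 12.9% of genes called higher and 12.1% of genes called lower. These shares are a description and no match shows a bound site. The 250 bases upstream of 3 genes that rose are shown because each holds the element, whose letters are in capitals. Each runs 5′ to 3′ along its gene's strand and ends just before the RefSeq start (RefSeq, GRCh38.p14), and each matched GRCh37 once, at the coordinates given.
GCLM, chr1:94374987-94375236, minus strand: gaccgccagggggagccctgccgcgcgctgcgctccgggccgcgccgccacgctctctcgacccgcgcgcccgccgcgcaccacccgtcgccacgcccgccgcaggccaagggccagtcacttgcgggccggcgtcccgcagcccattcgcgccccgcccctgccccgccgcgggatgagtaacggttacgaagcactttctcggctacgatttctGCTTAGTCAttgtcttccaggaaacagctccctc
TXNRD1, chr12:104609307-104609556, plus strand: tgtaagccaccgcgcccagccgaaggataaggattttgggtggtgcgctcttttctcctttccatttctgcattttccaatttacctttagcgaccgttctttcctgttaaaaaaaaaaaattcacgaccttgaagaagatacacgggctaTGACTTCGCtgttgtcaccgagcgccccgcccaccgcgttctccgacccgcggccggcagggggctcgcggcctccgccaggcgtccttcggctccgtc
GPX2, chr14:65409464-65409713, minus strand: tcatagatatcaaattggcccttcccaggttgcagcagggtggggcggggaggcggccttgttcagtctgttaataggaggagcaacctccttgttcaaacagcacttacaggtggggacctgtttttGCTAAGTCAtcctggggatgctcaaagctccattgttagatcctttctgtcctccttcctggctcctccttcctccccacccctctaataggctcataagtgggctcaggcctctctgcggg
The first base of the element lies at -34 from the start in GCLM, -99 in TXNRD1 and -122 in GPX2.

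Of the 13 genes of NADPH supply, 5 were called higher and 2 lower. TALDO1, a transaldolase of the pentose phosphate pathway, stood at 513, 599, 623 and 628 CPM in the sgKEAP1-2 libraries and at 237, 187, 221 and 266 CPM in the sgCtrl libraries, a 2.61-fold rise (limma adjusted p 2.17e-10). PGD, which forms NADPH in the same pathway, rose by 0.97 (SE 0.12, limma adjusted p 1.54e-06) on the log2 scale. IDH1, which makes NADPH in the cytosol, fell by 0.44 (SE 0.12, limma adjusted p 0.0092).

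The list with the highest median was that of quinone and carbonyl reduction, in which 11 of 17 genes were called higher and 0 lower, at a median of 1.48. NQO1, the quinone reductase used as a marker of NRF2 activity (chromosome 16, 69740899 to 69760571), stood at 1774, 1673, 1944 and 1832 CPM in the sgKEAP1-2 libraries and at 647, 592, 599.8 and 758 CPM in the sgCtrl libraries. It rose 2.79-fold (limma adjusted p 8.75e-13) with a spread of 113 CPM (SD, n = 4) among sgKEAP1-2 libraries. AKR1B10, an aldo-keto reductase that reduces aldehydes and retinal (chromosome 7, 134212319 to 134226164), stood at 847, 1182, 1686 and 1414 CPM in the sgKEAP1-2 libraries and at 92.4, 46.6, 44.02 and 136 CPM in the sgCtrl libraries, a 17.6-fold rise (limma adjusted p 1.42e-09). The sgCtrl libraries differed 3-fold among themselves, with replicates 1 and 4 highest, and the log2 fold change went from 4.13 to 4.81 with the 3 libraries left out. PTGR1, which reduces prostaglandin-derived enones, rose by 4.73 (SE 0.32, limma adjusted p 8.69e-11). AKR1C1 and AKR1C2, near-identical genes whose reads may be exchanged, rose 4.66-fold and 9.0-fold (limma adjusted p 5.12e-12 and 2.55e-11).

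Conjugation and efflux genes showed 11 of 21 called higher and 0 lower, at a median of 0.56. ABCC3, an exporter of conjugates at the basolateral membrane, stood at 101, 96.2, 121 and 114 CPM in the sgKEAP1-2 libraries and at 47.1, 35.5, 34.1 and 51.3 CPM in the sgCtrl libraries, and ABCC2, the canalicular exporter, at 242, 119.8, 124 and 124 CPM in the sgKEAP1-2 libraries and at 49.5, 52.9, 44.5 and 46.3 CPM in the sgCtrl libraries. They rose 2.62-fold and 2.99-fold (limma adjusted p 1.26e-08 and 6.75e-08), with ABCC2 highest in replicate 1. UGDH, which makes the sugar donor of glucuronidation, rose 1.58-fold (limma adjusted p 2.98e-07). GSTA1 and GSTA2, similar glutathione transferases whose reads may be shared, rose by 2.47 and 3.73, and UGT1A1, whose 3′ end is shared with the other UGT1A transcripts, by 4.42. GSTP1, among the transcripts of replicate 2 described above, stood at 0.309, 254, 0 and 0 CPM in the sgKEAP1-2 libraries and at 4.74, 0, 0 and 16.4 CPM in the sgCtrl libraries, with a log2 fold change of 0.16 (SE 2.18, limma adjusted p 0.973).

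Heme and iron genes moved in both directions, as 6 were called higher and 3 lower of 13 tested. SLC40A1, ferroportin, the iron exporter, stood at 157, 113, 152 and 149.9 CPM in the sgKEAP1-2 libraries and at 46.6, 39.6, 38.2 and 28.2 CPM in the sgCtrl libraries, a 3.76-fold rise (limma adjusted p 6.84e-07). FTL, the ferritin light chain, rose 1.85-fold (limma adjusted p 6.97e-07) and FECH, the last enzyme of heme synthesis, 2.26-fold (limma adjusted p 7.74e-06). FLVCR1, a heme and choline transporter, and TF, transferrin, fell by 1.08 and 0.84 on the log2 scale (limma adjusted p 8.51e-06 and 1.87e-05). HMOX1, heme oxygenase 1, a classical target of NRF2 and BACH1, stood at 37.7, 29.8, 23.4 and 32.7 CPM in the sgKEAP1-2 libraries and at 44.5, 33.3, 30.1 and 25.3 CPM in the sgCtrl libraries. Its log2 fold change was -0.11 (SE 0.20, limma adjusted p 0.761), with overlapping groups, and it was 0.0357 without sgCtrl replicate 1 and 0.0056 without sgKEAP1-2 replicate 3.

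**Figure D3:**
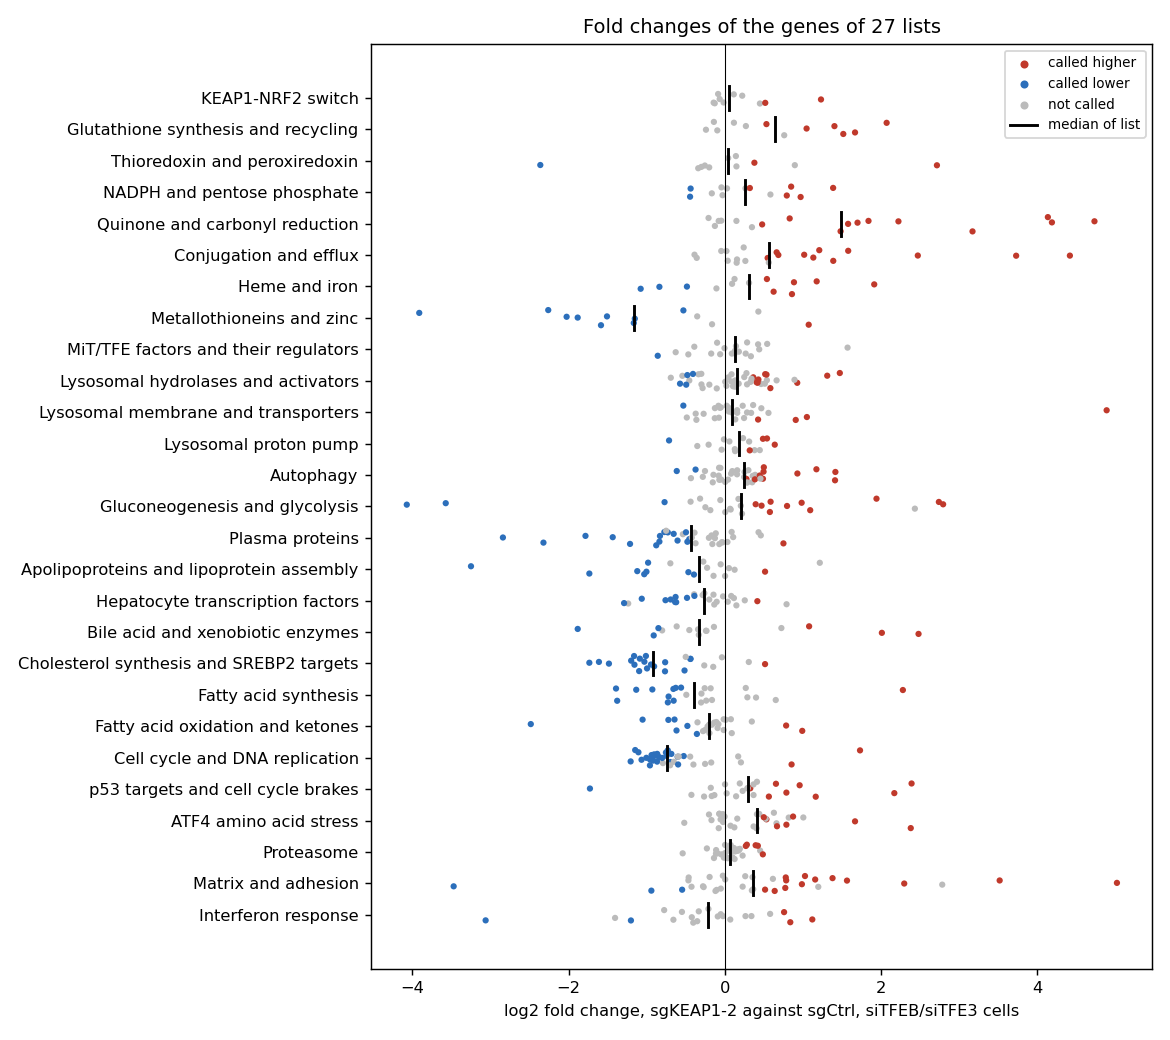
log2 fold change of sgKEAP1-2 against sgCtrl in siTFEB/siTFE3 cells for the tested genes of 27 lists, 1 point a gene, red where called higher, blue where called lower and grey where not called, with a black bar at each list's median. Quinone and carbonyl reduction has its median at 1.48, metallothioneins and zinc at -1.17 and cholesterol synthesis at -0.93.

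Lysosomal genes are known targets of TFEB and TFE3. Of 43 hydrolases and activators 10 were called higher and 4 lower, with a median of 0.15. The share called was 32.6%, against 20.2% of all genes. GLA, the galactosidase deficient in Fabry disease (chromosome X, 100648261 to 100663000, minus strand), stood at 24.4, 34.7, 33.6 and 41 CPM in the sgKEAP1-2 libraries and at 11.3, 10.1, 12.3 and 14.4 CPM in the sgCtrl libraries, a 2.77-fold rise (limma adjusted p 1.86e-06) without overlap. AGA, which cleaves asparagine from glycoproteins, rose 1.90-fold (limma adjusted p 5.88e-06) and IDS, iduronate sulfatase, 2.48-fold (limma adjusted p 0.00116). CTSB, cathepsin B, stood at 455, 673, 738 and 685 CPM in the sgKEAP1-2 libraries and at 360.0, 469, 399.8 and 459 CPM in the sgCtrl libraries, a log2 fold change of 0.58 (SE 0.16, limma adjusted p 0.0117). One sgKEAP1-2 library, replicate 1, lay among the sgCtrl libraries, and the adjusted p was 0.132 with the 3 libraries left out. CTSD, cathepsin D, had a log2 fold change of 0.15 (SE 0.10, limma adjusted p 0.331) and was not called. PCYOX1, GM2A, CTSH and NPC2 fell, by 0.49, 0.57, 0.48 and 0.41 on the log2 scale. With the 3 libraries left out the list counts were 5 higher and 3 lower, and without sgKEAP1-2 replicate 1 they were 13 higher and 4 lower, at a median of 0.36.

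Of 29 genes of the lysosomal membrane and its transport, 4 were called higher and 1 lower, at a median of 0.09. This share of 17.2% compares with 20.2% over all genes, and without sgKEAP1-2 replicate 1 the list had 7 higher and 1 lower, at a median of 0.20. LAMP1, a major membrane glycoprotein, stood at 319, 409.6, 434 and 442 CPM in the sgKEAP1-2 libraries and at 339, 349, 370.4 and 371 CPM in the sgCtrl libraries. The sgKEAP1-2 values lay on both sides of the sgCtrl range, with a log2 fold change of 0.16 (SE 0.09, limma adjusted p 0.247), and without sgKEAP1-2 replicate 1, the lowest, the value was 0.26 and passed. IGF2R, which sorts hydrolases to lysosomes, rose 1.88-fold (limma adjusted p 0.00283), from 168, 193, 163 and 154 to 343, 282, 311 and 336 CPM. AP1S3, an adaptor subunit, rose 2.07-fold (limma adjusted p 2.4e-05), and SLC11A2, an iron and metal transporter, fell by 0.53 (SE 0.10, limma adjusted p 0.000487). The fixed list also counts TMEM92, given above, and CD63. Whether TMEM92 is a lysosomal protein was not checked here.

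The CLEAR element is written as TCACGTGA, which contains the E-box CACGTG, and was searched on both strands. It was in 0.89% of all promoter windows, 1.85% of those of tested genes and 1.18% of those called higher, and in 10 of 66 (15.2%) of the tested genes of the 3 lysosomal lists, including 3 of 14 (21.4%) called higher and 0 of 6 called lower. The windows of IGF2R, which rose, and of LAMP1, which was not called, are shown as a pair that both hold it, with the elements in capitals.
IGF2R, chr6:160389864-160390113, plus strand: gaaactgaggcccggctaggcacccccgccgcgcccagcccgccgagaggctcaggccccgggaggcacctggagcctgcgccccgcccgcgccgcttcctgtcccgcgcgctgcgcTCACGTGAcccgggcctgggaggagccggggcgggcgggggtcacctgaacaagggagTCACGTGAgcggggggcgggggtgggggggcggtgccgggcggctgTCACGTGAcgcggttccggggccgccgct
LAMP1, chr13:113951304-113951553, plus strand: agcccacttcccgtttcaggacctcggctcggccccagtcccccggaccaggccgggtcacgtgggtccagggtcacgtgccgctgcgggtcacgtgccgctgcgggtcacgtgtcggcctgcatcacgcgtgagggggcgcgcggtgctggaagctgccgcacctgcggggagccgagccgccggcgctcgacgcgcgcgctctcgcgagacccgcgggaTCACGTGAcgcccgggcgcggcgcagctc
IGF2R has 3 elements, starting at -133, -75 and -29 from the start, and LAMP1 has 1, starting at -29.

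Of 16 subunits and partners of the lysosomal proton pump, 4 were called higher and 1 lower, 31.25% in all against 20.2% of all genes. ATP6V1D, ATP6V1E1 and ATP6V0E1 rose 1.56-, 1.45- and 1.40-fold (limma adjusted p 0.0013, 0.00092 and 0.000627). ATP6V0B, a membrane-sector subunit, stood at 84.8, 93.7, 75.4 and 83.6 CPM in the sgKEAP1-2 libraries and at 82.4, 75.3, 72.5 and 125 CPM in the sgCtrl libraries, with a log2 fold change of -0.04 (SE 0.16, limma adjusted p 0.897). Its highest library was sgCtrl replicate 4, and without that library the value was 0.14. Among the 20 MiT/TFE factors and regulators, 0 were called higher and 1 lower, a share of 5%. The lower gene was FNIP2, a partner of folliculin, at -0.86 (SE 0.12, limma adjusted p 4.17e-06). FLCN, folliculin, and GPNMB, a reporter gene of MiT/TFE activity, had log2 fold changes of -0.10 (SE 0.20, limma adjusted p 0.781) and 0.44 (SE 0.48, limma adjusted p 0.577), and GPNMB stood at 0.789 to 3.24 CPM over the 8 libraries.

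Autophagy genes gave 10 called higher and 2 lower of 37 (32.4% against 20.2% of all genes), at a median of 0.25. SQSTM1, the p62 receptor that also binds KEAP1, stood at 615, 479, 508 and 468 CPM in the sgKEAP1-2 libraries and at 154, 190.0, 177 and 269 CPM in the sgCtrl libraries, a 2.66-fold rise (limma adjusted p 5.14e-07). GABARAPL1, an ATG8 protein, rose 2.67-fold (limma adjusted p 5.27e-06) and TAX1BP1, another receptor, 2.25-fold (limma adjusted p 1.17e-06). All 4 libraries of each group were separate in these 3 genes. The smaller calls RB1CC1 and BNIP3, at log2 fold changes of 0.50 and 0.38, were not called with the 3 libraries left out, where the list had 5 higher and 1 lower.

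Metallothioneins, small metal-binding proteins that buffer zinc, were mostly lower. Of 13 genes of the list 1 was called higher and 9 lower, at a median of -1.17. MT1M (chromosome 16, 56666571 to 56667893) stood at 3.40, 3.69, 4.77 and 3.47 CPM in the sgKEAP1-2 libraries and at 81.1, 56.3, 63.5 and 43.4 CPM in the sgCtrl libraries, a 15.04-fold fall (limma adjusted p 1.51e-08). MT1G and MT1F fell 4.79- and 4.07-fold (limma adjusted p 5.32e-09 and 2.17e-10), and MT1X from 102, 67.1, 68.6 and 70.9 to 32.2, 24.1, 28.2 and 23.4 CPM. These genes are close copies in 1 cluster, so reads may be exchanged between them. MT2A stood at 1608, 2446, 2139 and 2289 CPM in the sgKEAP1-2 libraries and at 3729.5, 2985, 3058 and 2479.5 CPM in the sgCtrl libraries and fell by 0.53 (SE 0.16, limma adjusted p 0.0211), with 0.0542 as adjusted p with the 3 libraries left out. The 1 gene that rose, SLC39A10, is a zinc importer, with a log2 fold change of 1.07 (SE 0.28, limma adjusted p 0.00683).

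The metal response element, written as TGCACNC or TGCGCNC on either strand, was in 24.7% of all promoter windows, 33.7% of those of tested genes and 3 of the 6 matched windows of this list, 2 of the 3 of genes called lower. MT1X is shown because 4 matches, in capitals, lie in its 250 bases, starting at -150, -122, -78 and -53.
MT1X, chr16:56716132-56716381, plus strand: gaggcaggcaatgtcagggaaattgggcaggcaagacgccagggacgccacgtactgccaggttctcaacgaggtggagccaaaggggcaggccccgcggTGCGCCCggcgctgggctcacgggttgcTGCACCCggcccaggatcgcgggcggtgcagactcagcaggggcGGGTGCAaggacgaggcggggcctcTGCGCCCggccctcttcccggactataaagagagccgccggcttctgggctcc

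Genes of hepatocyte function fell more often than they rose. Of 34 secreted plasma proteins, 1 was called higher and 15 lower, at a median of -0.44. ALB, albumin, stood at 4538, 3578, 4124 and 3703 CPM in the sgKEAP1-2 libraries and at 7802, 10127, 9267 and 9752 CPM in the sgCtrl libraries, a 2.32-fold fall (limma adjusted p 8.6e-09). AFP, the fetal counterpart, stood at 903, 1389, 1719 and 1337 CPM in the sgKEAP1-2 libraries and at 4334, 8529, 7543 and 6499.8 CPM in the sgCtrl libraries and fell 4.998-fold (limma adjusted p 7.67e-08). RBP4, the retinol carrier, fell 1.71-fold (limma adjusted p 1.79e-06), and CP, ceruloplasmin, was the 1 gene called higher, by 0.75 (SE 0.20, limma adjusted p 0.00796), with adjusted p 0.193 with the 3 libraries left out. The plasma proteins of the list include APOH and the fibrinogen chains FGA, FGB and FGG among those that fell.

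Among 18 genes of lipoprotein assembly, 1 was called higher and 8 lower. Beside MTTP the lower genes included APOA1 of high-density lipoprotein, at 905, 932, 1167 and 1152 CPM in the sgKEAP1-2 libraries and at 1840.0, 1836, 2246 and 2423 CPM in the sgCtrl libraries. It fell 2.005-fold (limma adjusted p 4.13e-06). With the 3 libraries left out the counts were 0 higher and 7 lower.

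Of 25 hepatocyte transcription factors, 1 was called higher and 9 lower, at a median of -0.26. HNF4A, a nuclear receptor of hepatocyte identity, stood at 86.02, 117, 151 and 129 CPM in the sgKEAP1-2 libraries and at 189, 177, 188 and 179.6 CPM in the sgCtrl libraries, a log2 fold change of -0.62 (SE 0.12, limma adjusted p 0.000295). RXRA, the common partner of nuclear receptors, fell by 0.76 (SE 0.14, limma adjusted p 0.000192). NR2F2 fell by 0.69 (SE 0.16, limma adjusted p 0.0019), with -0.40 (adjusted p 0.181) with the 3 libraries left out, where the list had 1 higher and 4 lower. Bile acid and xenobiotic enzymes had 3 called higher and 3 lower of 15. CYP24A1, which inactivates vitamin D, and CYP4F11, a fatty acid hydroxylase, rose 5.58- and 4.03-fold (limma adjusted p 0.000463 and 2.17e-06), and ABCB4, the phospholipid exporter of bile, fell 1.80-fold (limma adjusted p 0.00349).

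Genes of sugar metabolism were called both higher and lower. The list of 25 genes had 10 called higher, among them glucose transporters and enzymes of glycolysis. The 3 called lower were PCK1, G6PC1 and the glucose 6-phosphate carrier SLC37A4. SLC2A3, a glucose transporter, stood at 483, 653, 598 and 717 CPM in the sgKEAP1-2 libraries and at 296, 308, 297 and 243 CPM in the sgCtrl libraries, a 2.13-fold rise (limma adjusted p 3.12e-06). PFKP, the platelet phosphofructokinase, rose 6.68-fold (limma adjusted p 5.14e-06) and ALDOA, an aldolase, 1.49-fold (limma adjusted p 0.000165). With the 3 libraries left out the counts were 6 higher and 3 lower, and SLC2A1 and PFKFB3 were among the genes no longer called (adjusted p 0.0995 and 0.108).

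Most genes of cholesterol synthesis fell, as 18 of 24 tested genes were called lower and 1 higher, at a median of -0.93. HMGCS1, the synthase of an early step, stood at 215, 163, 270.3 and 194 CPM in the sgKEAP1-2 libraries and at 458, 640.1, 672 and 570.1 CPM in the sgCtrl libraries. It fell 2.80-fold (limma adjusted p 1.26e-08) and EBP, a late sterol isomerase, 2.30-fold (limma adjusted p 2.83e-08). With the 3 libraries left out 0 higher and 16 lower were called.

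Fatty acid synthesis had 10 of 22 called lower and 1 higher. ELOVL2, an elongase of polyunsaturated fatty acids, fell 2.60-fold (limma adjusted p 6.11e-09) and the desaturases FADS1 and FADS2 1.55- and 2.19-fold (limma adjusted p 8.8e-06 and 9.28e-06). In fatty acid oxidation 2 were called higher and 7 lower of 27, 33.3% in all against 20.2% of all genes. FABP1, the liver fatty acid-binding protein, stood at 153, 211, 245 and 193 CPM in the sgKEAP1-2 libraries and at 672, 1409.8, 1209 and 1319 CPM in the sgCtrl libraries, a 5.59-fold fall (limma adjusted p 3.53e-09). HADH, of beta-oxidation, fell 2.07-fold (limma adjusted p 3.57e-07), whereas CPT1A, which admits fatty acids to mitochondria, rose from 113, 130.4, 121 and 113 to 215, 243, 239 and 251 CPM (1.99-fold, limma adjusted p 7.33e-07).

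Cell cycle genes were lower, with 23 of 36 called lower and 2 higher, at a median of -0.74. UBE2C, which drives the exit from mitosis, stood at 27.5, 35.9, 20.4 and 28.03 CPM in the sgKEAP1-2 libraries and at 78.9, 67.6, 59.5 and 50.5 CPM in the sgCtrl libraries, a 2.31-fold fall (limma adjusted p 2.59e-05). CENPA, the centromeric histone, fell 2.09-fold (limma adjusted p 5.47e-05). The 2 that rose were the D cyclins. CCND1 rose 1.81-fold (limma adjusted p 3.86e-08), and CCND2 stood at 27.8, 148, 53.4 and 42.2 CPM in the sgKEAP1-2 libraries and at 18.9, 12.1, 16.7 and 21.3 CPM in the sgCtrl libraries, with replicate 2 far above the rest and log2 fold changes of 1.73 with and 1.27 without that library. The counts were 2 higher and 16 lower with the 3 libraries left out.

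Of 24 p53 targets and cell cycle brakes, 8 were called higher and 1 lower. CDKN2A and CDKN2B, neighbouring inhibitors of the D cyclin kinases, rose 4.50- and 5.24-fold (limma adjusted p 1.28e-05 and 8.17e-06), and CDKN2C fell 3.31-fold (limma adjusted p 2.59e-05). CDKN1A, the p21 target of p53, rose by 0.56 (SE 0.12, limma adjusted p 0.00158). ATF4 targets of amino acid stress had 7 of 29 called higher and 0 lower, 24.1% in all against 20.2% of all genes. Among them were SLC7A11 and SLC3A2, above, and SLC1A5, a glutamine transporter with a log2 fold change of 0.67 (SE 0.16, limma adjusted p 0.00422). The count of 7 was 2 with the 3 libraries left out. Proteasome genes gave 5 of 36 called higher, 13.9% against 10.6% of all genes, the largest PSMD12 at 0.49 (SE 0.15, limma adjusted p 0.0175), and without sgKEAP1-2 replicate 1, in which PSMD12 and PSMD14 were highest, the count was 2.

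Matrix and adhesion genes had 13 called higher and 3 lower of 35. SPP1, osteopontin, a secreted ligand of integrins, stood at 1774, 1210.2, 1815 and 1493 CPM in the sgKEAP1-2 libraries and at 191, 97.1, 100.1 and 184 CPM in the sgCtrl libraries. It rose 11.5-fold (limma adjusted p 8.75e-13) and the log2 fold change went from 3.52 to 4.10 with the 3 libraries left out. FN1, fibronectin, and TIMP1, an inhibitor of matrix proteases, rose by 0.79 (SE 0.12, limma adjusted p 3.45e-05) and 1.56 (SE 0.20, limma adjusted p 2.25e-06), and COL27A1, a fibrillar collagen, fell by 0.94 (SE 0.10, limma adjusted p 2.29e-07). Interferon response genes had 3 called higher and 2 lower of 21, 23.8% in all, which is close to the 20.2% of all genes. The membrane proteins IFITM2 and IFITM3 rose 1.79- and 1.69-fold (limma adjusted p 7.61e-06 and 4.14e-05), and IFIT1 fell by 3.06 on 1.49 to 3.62 CPM in sgCtrl cells (limma adjusted p 0.00457).

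The second guide was then set beside the first. Between sgKEAP1-2 and sgKEAP1-1 under siTFEB/siTFE3, 1 gene of 11152 (0.00897%) was called, and 856 had an unadjusted p under 0.05. The gene was SLC6A14, an amino acid transporter, at 8.04, 6.15, 7.04 and 8.57 CPM with sgKEAP1-2 and 19.04 to 32.9 CPM with sgKEAP1-1. Its log2 difference was -1.68 (SE 0.25, limma adjusted p 0.00431), with a 95% interval of -2.19 to -1.17, and the 2 guides did not overlap. Without sgKEAP1-2 replicate 2 the adjusted p was 0.0607, and 0.0778 when the fit held only the groups compared, so the call was lost in both. A fit blocked on replicate called 11 genes between the guides. Against sgCtrl its log2 fold change was -2.03 (SE 0.24, limma adjusted p 7.33e-07) with sgKEAP1-2 and -0.35 (SE 0.18, limma adjusted p 0.26) with sgKEAP1-1, contrasts that share the sgCtrl libraries.

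EPB41L2, a membrane skeleton protein, and MTTP were the next lower genes, at -0.46 (SE 0.09, limma adjusted p 0.0744) and -1.35 (SE 0.27, limma adjusted p 0.0744). SLC4A11, a borate and proton transporter family member, KEAP1 and TSPAN5, a tetraspanin, were the higher genes with the smallest p, at 0.85 (SE 0.17, limma adjusted p 0.0744), 0.48 (SE 0.11, limma adjusted p 0.152) and 1.00 (SE 0.22, limma adjusted p 0.152). None of these 5 was called. For 9298 genes (83.4%) the 95% interval of the difference between guides lay within 2-fold, and for 5889 (52.8%) within 1.5-fold. For NQO1 and GLA the intervals were 0.02 to 0.34 and -0.09 to 0.55 on the log2 scale. Cell cycle genes had a median difference of -0.39 with 0 called, and against sgCtrl 5 of them were lower with sgKEAP1-1 beside 23 with sgKEAP1-2. Over all genes sgKEAP1-1 gave 634 higher (5.69%) and 536 lower (4.81%) calls, 10.5% in all, against the same controls.

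The last comparison asked whether the sgKEAP1-2 effect differed between siTFEB/siTFE3 and siNC. The interaction, the log2 fold change under knockdown minus that under siNC, called 0 of 11152 genes by limma (0%), 0 by edgeR and 0 by DESeq2, with 454 at an unadjusted p under 0.05. Its 95% interval lay within 2-fold for 7586 genes (68.0%) and within 1.5-fold for 3268 (29.3%), so for most genes a 1.5-fold difference between the 2 siRNA conditions remains within the interval. NES, an intermediate filament protein (chromosome 1, 156638555 to 156647199, minus strand), had the smallest p, with an interaction of 1.01 (SE 0.23, unadjusted p 0.000205, limma adjusted p 0.991). It rose from 27.6, 29.2, 33.4 and 37.4 to 109, 87.1, 84.7 and 92.6 CPM under knockdown, and from 43.97 ± 6.99 CPM to 64.5 ± 15.8 CPM (SD, n = 4) under siNC.

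TMX4, a thioredoxin-related membrane protein, and CEP112, a centrosomal protein, followed at 0.72 (SE 0.19, limma adjusted p 0.991) and 1.68 (SE 0.48, limma adjusted p 0.991), and on the other side LBX2, a homeobox factor, CYP27A1, a sterol hydroxylase, and BBS5, of the cilium, at -1.34 (SE 0.35, limma adjusted p 0.991), -0.42 (SE 0.12, limma adjusted p 0.991) and -2.19 (SE 0.64, limma adjusted p 0.991). None was called. LBX2 stood at 1.86, 4.67, 3.63 and 2.78 CPM in the sgKEAP1-2 libraries and at 9.74, 8.45, 8.11 and 7.93 CPM in the sgCtrl libraries, and at 5.33 to 6.60 CPM and 4.14 to 6.998 CPM with siNC. Of the lysosomal and MiT/TFE genes always named, the interaction was -0.68 to 0.41 (95% interval) for GLA, -0.88 to 0.07 for CTSB, -0.40 to 0.13 for LAMP1, -1.14 to -0.11 for FLCN and -3.12 to -0.12 for GPNMB. These intervals are not adjusted for the number of genes, and those of FLCN and GPNMB lie below 0. LAMP1, CTSD, FLCN, TFE3 and GPNMB were called higher with sgKEAP1-2 under siNC (0.30, 0.34, 0.53, 0.67 and 2.06) and were not called under knockdown (0.16, 0.15, -0.10, 0.54 and 0.44), but the test of the difference passed for none of the 5 (all at a limma adjusted p of 0.991 or more). Over the lists, 4 of 20 MiT/TFE genes, 14 of 43 hydrolases and 8 of 29 lysosomal membrane genes were called higher under siNC. Under knockdown these counts were 0, 10 and 4. The proton pump had 3 and 4 of 16 and autophagy 8 and 10 of 37. Over all genes, 7.58% were called higher under siNC and 10.6% under knockdown. Lower calls in these 5 lists, in the same order, were 1, 1, 1, 0 and 0 under siNC and 1, 4, 1, 1 and 2 under knockdown. The median interactions of the first 3 were -0.12, -0.11 and -0.11, those of the proton pump and autophagy -0.02 and 0.02, and that of all genes -0.001. Lists of other functions had values of like size or larger, among them cholesterol synthesis at -0.19 and heme and iron at -0.16. A negative value does not mean the same in each list. Cholesterol synthesis had median log2 fold changes of -0.67 under siNC and -0.93 under knockdown, so its negative value goes with a larger fall. The first 3 lists had positive medians, 0.18, 0.20 and 0.26 under siNC and 0.13, 0.15 and 0.09 under knockdown. Heme and iron had 0.32 and 0.31.

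**Figure D4:**
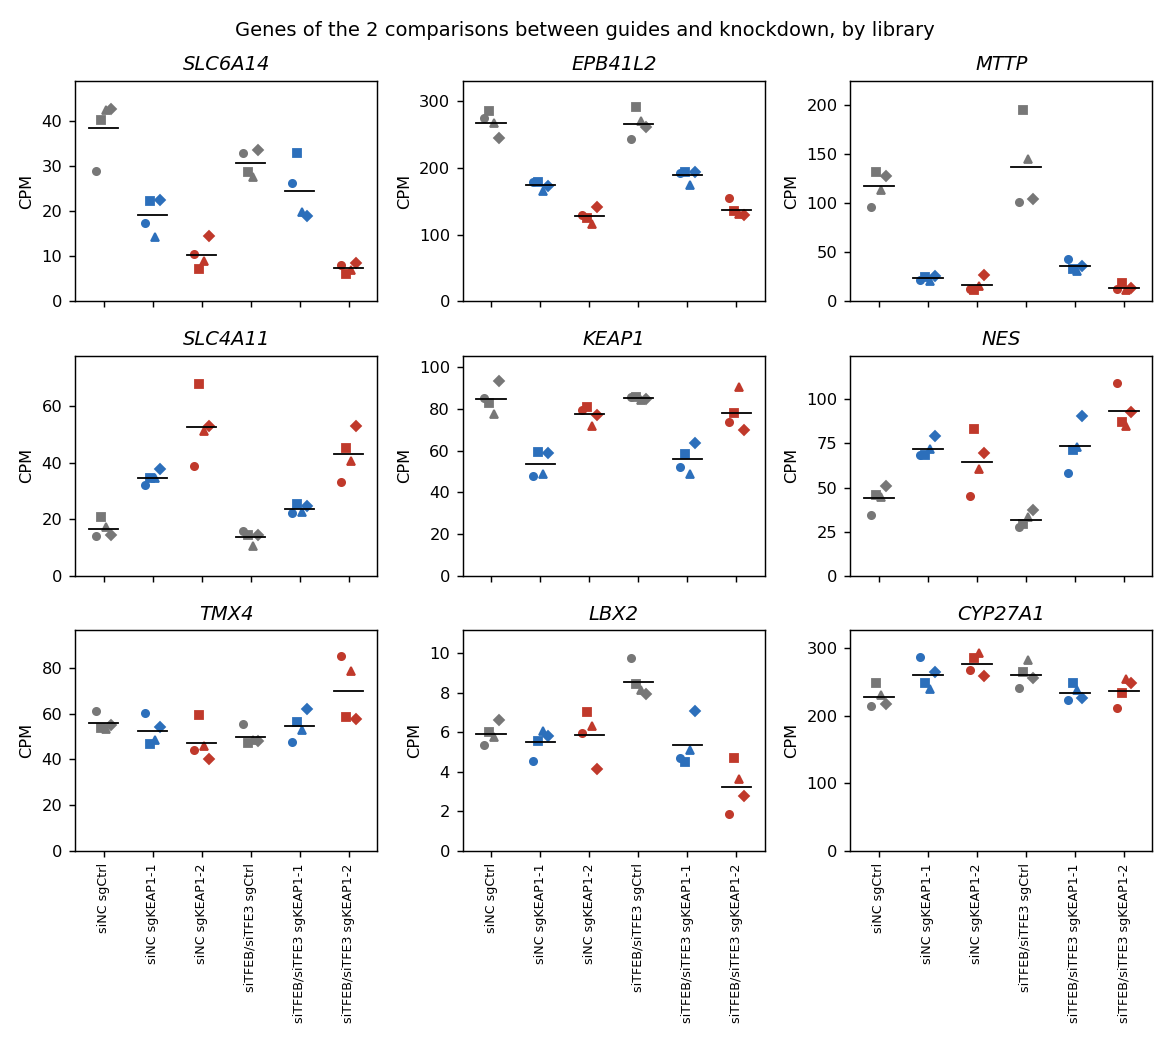
CPM of 9 genes in each library of the 6 groups, sgCtrl in grey, sgKEAP1-1 in blue and sgKEAP1-2 in red, with symbols for the replicate and a bar at the mean. SLC6A14 differs between the guides under siTFEB/siTFE3, and NES stands at 84.7 to 109 CPM with sgKEAP1-2 there and at 45.2 to 82.9 CPM with siNC.

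The contrast of sgKEAP1-2 with sgCtrl under siNC shares no library with the one under knockdown. It called 845 genes higher (7.58%) and 796 lower (7.14%), 1641 in all (14.7%), and 1249 genes were called in both, 55.4% of the knockdown calls and 76.1% of the siNC calls, with 0 in opposite directions. Across the 11152 genes, which are not independent replicates and share 1 fit, the log2 fold changes had a Pearson's r of 0.816. NQO1 rose by 1.36 under siNC and 1.48 under knockdown, GCLM by 2.17 and 2.07, AKR1B10 by 4.29 and 4.13 and GLA by 1.61 and 1.47. Metallothionein MT1M fell by 3.48 and 3.91. For these 5 genes the interaction was not called (limma adjusted p 0.991 for NQO1).

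**Figure D5:**
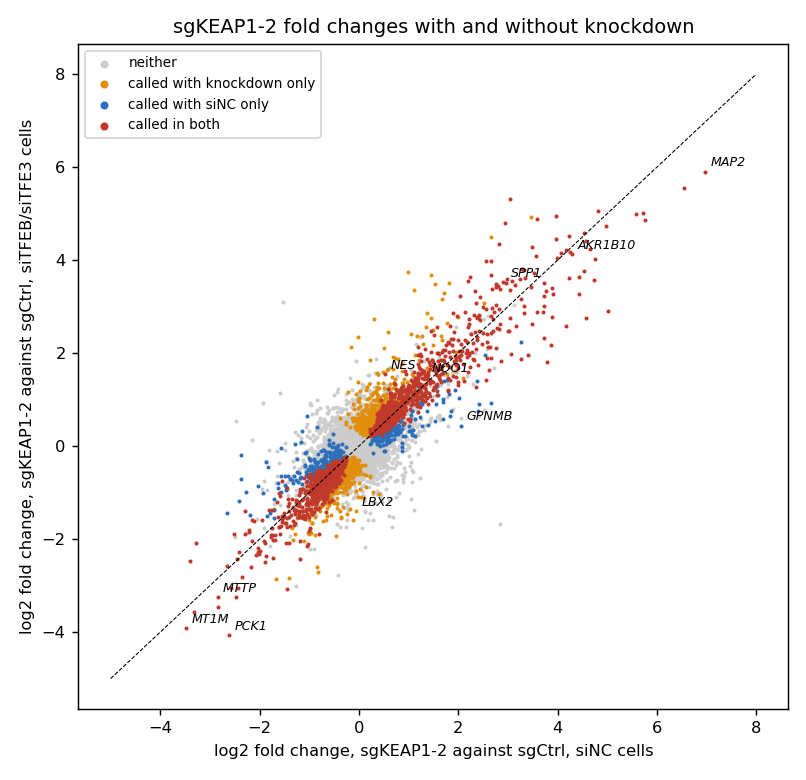
log2 fold change of sgKEAP1-2 against sgCtrl under siNC (x axis) and under siTFEB/siTFE3 (y axis) for 11152 genes, coloured by the calls in each, with a dashed line where both are equal. The 1249 genes called in both lie on the same side of 0 in both comparisons.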

How the data were processed

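3′ RNA-seq (QuantSeq) was made from 24 HepG2 libraries. The authors deposited raw read counts per gene, 1 column a library. Per the labels' processing notes and the study's methods these came from cutadapt 1.16, STAR 2.7.5b and featureCounts 1.6.3, with FastQC 0.72 and limma 3.40.6 also listed. The methods name hg19 and the labels hg38. The table holds no coordinates, so those printed are from GRCh37. Of 13446 rows, 1414 without an Entrez ID (1.35 to 2.57% of reads) were left out, and genes of identical counts were joined. Counts of 11152 of 11927 features passed filterByExpr and were fitted with limma 3.58.1 (voom, TMM, edgeR 4.0.16, R 4.3.3) on 6 group means over all 24 libraries, with Benjamini-Hochberg adjustment over all genes and a threshold of 0.05. The model was tested on simulated data. Lower bounds of folds use 3 counts per library and cover counting error only. Members and gene lists were chosen with earlier results of these data known. Genes named were a fixed set, the 10 that rose and fell most among called genes with a mean of at least 10 counts and no overlap, up to 3 of each list, and the genes of smallest p in the other contrasts. Others in the text were chosen after their values were seen. Alternatives were RLE size factors, no low-count filter, edgeR quasi-likelihood, DESeq2 1.42.0, quality weights, a replicate block, fewer groups, a fold minimum and leaving out libraries. The alternatives without sgCtrl libraries 1 and 4, or these and sgKEAP1-2 library 2, were chosen after seeing the data. Results for some genes are not reported here.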

Additional observations from a re-analysis of the deposited data

Results flagged for a closer look

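Within groups of 4, a library was singled out where its gap to the nearest other relative to the group's range exceeded Dixon's 95% critical value, which chance gives in about 1 of 20 groups. In sgKEAP1-2 cells under siTFEB/siTFE3, replicate 1 stood apart for LINC01484 (44.2 CPM), ABCC2 (242 CPM), FTL (7492 CPM) and COL27A1 (161 CPM), all highest, and for ATP6V1D (40.2 CPM), lowest. The same library had the highest share of reads in rows without a gene ID, 2.57%, and in its top gene, 4.42%. Replicate 2 was lowest for SLC40A1 (113 CPM) and stood at 2331 CPM for the summed 55 genes read there, and replicate 4 was lowest for PGD (153 CPM).

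Among the sgCtrl libraries under siTFEB/siTFE3, replicate 4 was highest for TFEB (3.96 CPM), EGF (0.496 CPM) and EBP (217 CPM), replicate 1 was highest for TMX4 (55.3 CPM) and in the share of its top gene (1.23%) and lowest for CTSD (239 CPM), and replicate 2 was lowest for LINC01484 (0 CPM).

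SLC6A14 differed between the guides under siTFEB/siTFE3, by a log2 fold change of -1.68. CYP27A1 and BBS5 moved under siTFEB/siTFE3 by -0.14 and -1.13 on the log2 scale, opposite to their change under siNC, and neither interaction passed the limma threshold. The rows without a gene ID, which no comparison used, were fitted apart with their own scaling. Of 907 such rows tested, 21 were called higher and 12 lower with sgKEAP1-2 under siTFEB/siTFE3.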

How the results depend on the processing

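The count of genes called for sgKEAP1-2 against sgCtrl under siTFEB/siTFE3 ranged from 1596 (only the groups compared) to 2738 (quality weights), and from 1818 to 2236 when 1 library was left out. It was 1472, with 659 lower, without sgKEAP1-2 replicate 2 and sgCtrl replicates 1 and 4, and 743, 474 higher and 269 lower, with a log2 fold change of at least 1 required. Between the guides 1 gene became 3 by edgeR, 18 by DESeq2, 5 with quality weights, 8 without every library numbered 1, 0 with only the groups compared, and 0 to 3 when 1 library was left out, 0 without sgKEAP1-2 replicate 2 and 3 without sgKEAP1-2 replicate 1. The replicate block gave 11 there and 2480 genes for the main comparison. Each number has 1 name prefix in all 6 groups, so it may mark a shared run, but the labels do not say so, and deviations from the group means correlated over 0.1 in 20 of 60 same-numbered pairs, with -0.06 to 0.13 for the 4 pairs compared here. Whether the numbers pair the libraries is thus not settled. The interaction called 0 genes in every setting run. With the fold minimum the siNC comparison called 574 genes and sgKEAP1-1 427, and sgKEAP1-1 called 1948 with quality weights. HMOX1, not called, ranged from -0.22 to 0.0357 when 1 library was left out, and was 0.0056 without sgKEAP1-2 replicate 3. ATP6V0B, not called, ranged from -0.13 to 0.14 likewise, and was 0.0255 with quality weights, 0.19 without sgCtrl replicates 1 and 4 and 0.14 without those and sgKEAP1-2 replicate 2. The cause of these changes was not tested. Of the alternatives for 116 named genes, 2041 kept direction and side of the threshold, 33 lost the call, 4 gained it and 6 changed sign. Low counts limit the folds of genes near 0 in sgCtrl cells.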

Other observations

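Some secreted and signalling genes outside the lists, chosen after their values were seen, also changed with sgKEAP1-2 under siTFEB/siTFE3. NRG1, an ErbB ligand, stood at 13, 20.9, 19.99 and 22 CPM in the sgKEAP1-2 libraries and at 0.789, 0.241, 0.463 and 1.98 CPM in the sgCtrl libraries, a log2 fold change of 4.59 (SE 0.63, limma adjusted p 5.24e-06). INHBB, an activin subunit, and IGFBP3, which binds insulin-like growth factors, rose by 3.03 (SE 0.41, limma adjusted p 4.16e-06) and 2.88 (SE 0.73, limma adjusted p 0.00537). EPO, erythropoietin, stood at 5.88, 2.21, 1.82 and 1.85 CPM in the sgKEAP1-2 libraries and at 6.58, 12.6, 6.02 and 8.42 CPM in the sgCtrl libraries, a log2 fold change of -1.66 (SE 0.48, limma adjusted p 0.0146). LEAP2, a peptide secreted by liver, and CREB3L3, a liver transcription factor of the endoplasmic reticulum, had log2 fold changes of -2.01 (SE 0.42, limma adjusted p 0.001) and -2.11 (SE 0.29, limma adjusted p 6.25e-06).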
